A study of Mus musculus with 49 samples.

Results

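The complement genes described here are 38 named genes of 55487 in the deposited table. They were taken by name from a list of complement components, receptors and regulators, which was chosen with earlier results of these data known. All 38 were found in the table, each under a single Ensembl identifier, and they fall into 7 roles: 5 genes of classical pathway recognition, 6 of the lectin pathway, 5 convertase components, 7 terminal components, 5 fluid-phase regulators, 4 membrane regulators and 6 receptors.

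The animals were HuHER2 transgenic mice, which carry human HER2 and develop mammary tumors of their own. The mice were palpated from 7 months of age, and each mouse that grew a tumor was given 1 intravenous dose of PBS or of BP, an iron oxide nanoparticle, at 5 mg Fe per mouse, with 3 mice per arm. The study's design text puts collection at 7 days after the dose, whereas the treatment protocol on the sample labels names 31 days, so the time point is uncertain. Total RNA was sequenced from tumor, lung, liver, spleen, lymph node and bone marrow of all 6 mice, which gave 36 libraries of bulk tissue. For the BP mice a section of each organ other than lung was also digested, and the cells that held nanoparticle were drawn out with a magnet. These nanoparticle-associated cells (NA) gave 13 libraries: 3 each from liver, spleen, tumor and bone marrow and 1 from lymph node of BP mouse 2. All groups therefore share the HER2 transgene and a tumor, PBS mice have no NA fraction, and NA cells had been through digestion and sorting whereas bulk tissue had not. The promoter of the transgene and the mouse strain are not given in the sources used here, and no marker of the sorted cells' identity is given other than their nanoparticle.

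Complement is a set of plasma proteases and their cofactors that marks surfaces for uptake. Antibody or sugars on a surface engage C1q, mannose-binding lectins or ficolins, whose proteases cut C4 and C2 into a convertase. The convertase cuts C3, factor B and properdin enlarge the reaction, and C5 to C9 assemble a pore, while fragments C3a and C5a act on receptors of myeloid cells. Hepatocytes make most of the plasma proteins, tissue macrophages make C1q and properdin is made mostly by myeloid cells. Iron oxide particles are known to bind complement proteins in blood, and macrophages of liver and spleen take such particles up.

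Each library held between 9362264 and 19734849 expected counts (median 13165587). At these depths 3 counts correspond to 0.152 to 0.32 CPM (counts scaled to a fixed library size), and values below that are not told from absence. The 3 NA liver libraries stood apart in that mitochondrial genes took 48.2 to 57.2% of their counts, where BP bulk livers had 5.67 to 7.06% and the other 10 NA libraries 1.80 to 5.78%. CPM values are given after TMM scaling within the comparison they belong to, so a library's value differs from comparison to comparison. Exceptions are the summed levels of marker lists, the percents of bulk liver level and the values set beside the NA lymph node library. Those are CPM of plain library totals. A gene is called where edgeR's quasi-likelihood test gave a Benjamini-Hochberg adjusted p under 0.05 over all genes tested in that comparison. Replicates are mice, and in bulk tissue fewer cells of a type and less RNA per cell cannot be told apart.

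Several members lie next to each other. C1qb, C1qc and C1qa stand in a row on chromosome 4 at 136880129-136886187, 136889804-136893065 and 136895917-136898803 (GRCm38.p6, minus strand), with 3.62 and 2.85 kb between them. C8b and C8a lie 11.1 kb apart on chromosome 4, C5ar2 and C5ar1 lie 2.59 kb apart on chromosome 7, Itgam and Itgax 11.1 kb apart on chromosome 7, and Cfb and C2 0.086 kb apart on chromosome 17. Members overlap other annotated genes, among them Zbtb12 for C2, Gm20547 for C2 and Cfb, Gm49368 for Itgam, Fbxw5 for C8g, Tardbp for Masp2, Gm17662 for C8a and Rtp4 for Masp1. Antisense RNAs are annotated over Fcna, C1s1, Hc and Cd55. C4b, C1ra, C1s1, Cd59a and Cd55 have near-identical copies (C4a, C1rb, C1s2, Cd59b and Cd55b). How reads were shared among such genes, and whether strand was used, is not given in the sources used here, so values of these members are uncertain to that extent.

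Promoters of 29 members, from 250 bases before to 50 bases after the start site, were found in the RefSeq table of build GRCm38.p6. The members with no entry were C1qa, C2, C4b, Cfb, Cfi, Serping1, Masp1, Itgb2 and Clu. Of the 29, 17 had their highest PBS level in liver and 12 in another organ. Printed below are promoters of 4 liver-highest members and of Fcna and Itgam, highest in spleen and in marrow, all chosen after their motif matches were seen. Masp2, C9, Mbl2, C8g and Mbl1, which stood further above their second organ than Vtn did, hold no HNF1 match and are not shown. Capitals mark matches on either strand to GTTAAT, the core of the binding motif of the hepatocyte factor HNF1 (reverse ATTAAC), and to GAGGAAG, a core of the motif of the myeloid factor PU.1 (reverse CTTCCTC). The 2 motifs do not overlap each other in these sequences.
C8a promoter, chr4:104876349-104876648, minus strand: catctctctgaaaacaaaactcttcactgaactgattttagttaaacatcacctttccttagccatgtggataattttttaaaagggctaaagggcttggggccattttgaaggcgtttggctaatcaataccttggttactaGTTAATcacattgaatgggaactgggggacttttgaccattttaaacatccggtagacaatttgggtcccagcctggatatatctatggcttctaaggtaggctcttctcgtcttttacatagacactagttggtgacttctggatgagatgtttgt
C8b promoter, chr4:104766067-104766366, plus strand: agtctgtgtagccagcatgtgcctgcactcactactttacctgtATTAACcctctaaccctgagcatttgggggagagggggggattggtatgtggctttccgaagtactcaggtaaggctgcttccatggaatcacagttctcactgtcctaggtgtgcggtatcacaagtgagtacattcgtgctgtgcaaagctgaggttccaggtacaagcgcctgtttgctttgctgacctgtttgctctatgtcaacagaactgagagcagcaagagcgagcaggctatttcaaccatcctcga
C4bp promoter, chr1:130661569-130661868, minus strand: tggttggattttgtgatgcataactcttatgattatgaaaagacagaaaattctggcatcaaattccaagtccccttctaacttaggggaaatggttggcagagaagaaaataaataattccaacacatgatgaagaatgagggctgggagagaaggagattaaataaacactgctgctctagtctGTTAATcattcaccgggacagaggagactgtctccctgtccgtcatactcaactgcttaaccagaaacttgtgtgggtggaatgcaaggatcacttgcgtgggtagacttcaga
Vtn promoter, chr11:78498870-78499169, plus strand: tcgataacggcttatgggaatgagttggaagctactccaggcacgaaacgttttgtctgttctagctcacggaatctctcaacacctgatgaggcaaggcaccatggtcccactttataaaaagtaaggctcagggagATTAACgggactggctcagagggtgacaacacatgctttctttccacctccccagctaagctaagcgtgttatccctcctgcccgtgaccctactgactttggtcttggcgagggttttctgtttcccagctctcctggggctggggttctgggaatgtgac
Fcna promoter, chr2:25627925-25628224, minus strand: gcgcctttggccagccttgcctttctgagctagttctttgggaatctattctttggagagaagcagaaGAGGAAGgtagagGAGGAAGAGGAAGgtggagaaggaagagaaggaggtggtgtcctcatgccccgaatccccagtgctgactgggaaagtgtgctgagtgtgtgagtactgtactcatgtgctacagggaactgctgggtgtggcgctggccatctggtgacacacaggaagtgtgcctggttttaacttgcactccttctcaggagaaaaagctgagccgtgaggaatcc
Itgam promoter, chr7:128062390-128062689, plus strand: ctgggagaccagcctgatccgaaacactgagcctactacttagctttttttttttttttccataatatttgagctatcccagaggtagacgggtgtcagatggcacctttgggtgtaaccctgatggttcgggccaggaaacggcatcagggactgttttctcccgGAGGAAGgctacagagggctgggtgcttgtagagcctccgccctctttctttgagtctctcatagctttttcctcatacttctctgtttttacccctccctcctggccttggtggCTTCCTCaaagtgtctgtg
Where a member has 2 listed starts (C1s1, C8g and C5ar2) the first was used. The HNF1 core stood at position -107 from the start site in C8a, -206 in C8b, -64 in C4bp and -112 in Vtn. It was found in 6 of the 17 liver-highest members and in 3 of the 12 others (C7, Cfp and Cd55), and in 7.10% of all 32851 promoters of 27025 genes in the table. GAGGAAG was found 3 times in Fcna, where 2 matches share a base, 2 times in Itgam, and also in C1qc and in the second listed start of C5ar2, which was not counted. It was in none of the 17 liver-highest members and in 13.6% of all promoters. A match of these letters is a description of the window and no evidence of binding. TTGCNNAA (C/EBP) was found in 4 and 2 members of the same 2 groups (10.8% of all promoters) and TATAAA in 3 and 2 (13.6%). CAAAGTCCA (HNF4) and the NF-kB consensus were found in none of the 29, against 0.475% and 0.155% of all promoters.

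**Figure D1:**
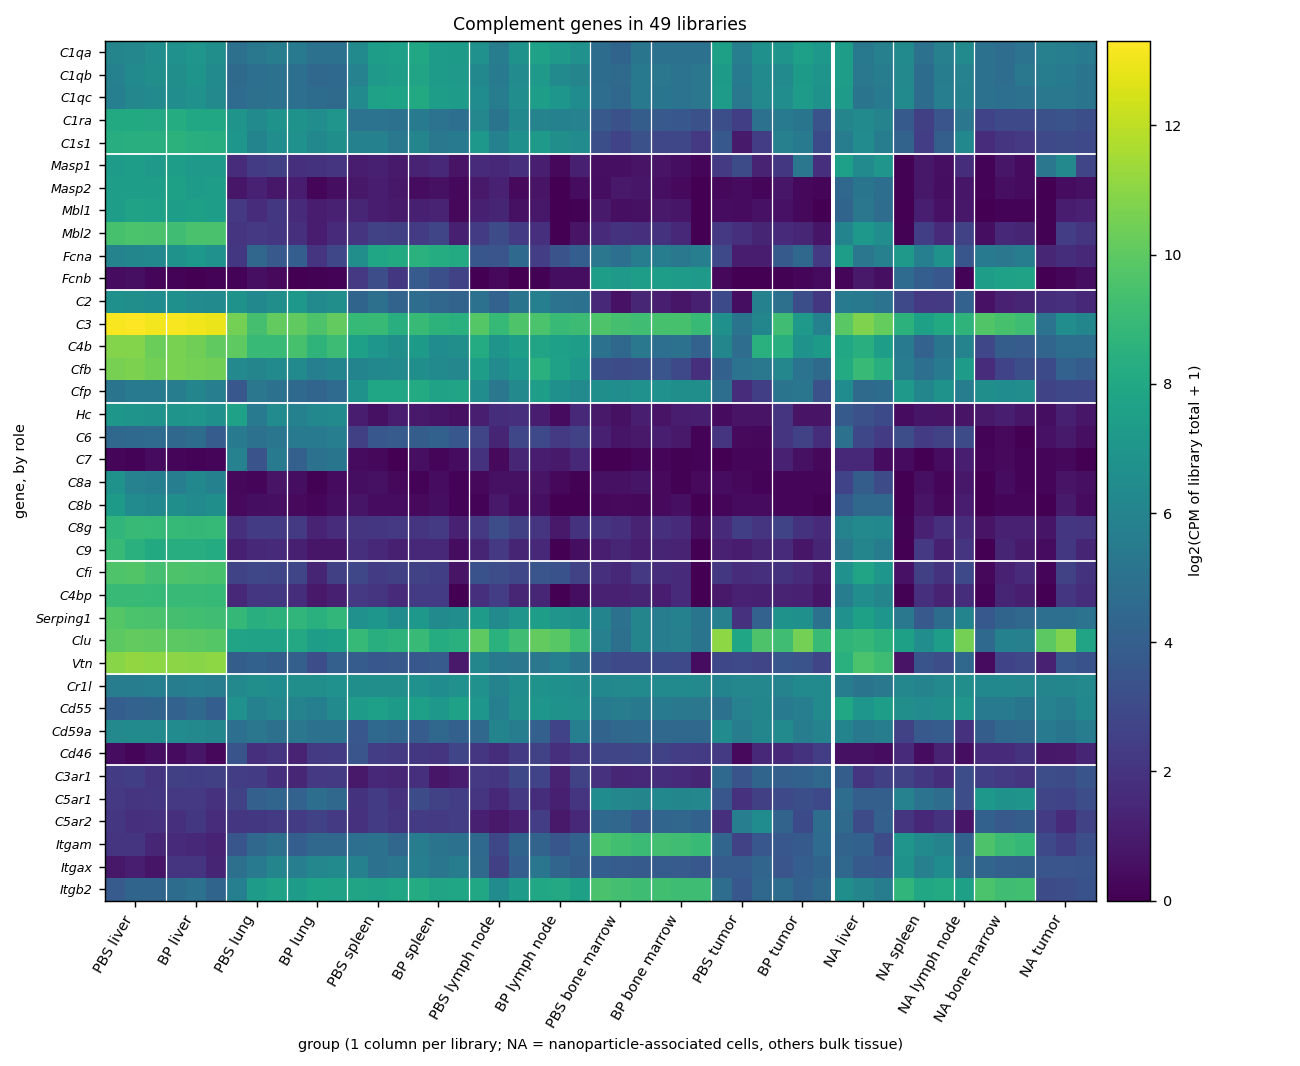
Level of the 38 complement genes, by role from top to bottom, in each of the 49 libraries, as log2(CPM of the library total + 1), with 1 column per library. C8a, C8b, C8g, C9, Mbl1 and Mbl2 are bright in liver and dark in other bulk organs, Itgam, Itgb2 and C5ar1 are brightest in bone marrow, Hc and C6 are bright in liver and lung, and C7 is bright in lung.

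The first comparison asked where complement genes are expressed in tumor-bearing mice without nanoparticle. Each organ of the 3 PBS mice was set against the mean of the other 5. In liver 27 members were called higher and 5 lower, where 29% of all 17696 genes tested were called higher and 35.3% lower (64.3% in either direction). By the mean of scaled CPM liver was the highest organ for 25 members, marrow for 5, spleen for 4, and lung and tumor for 2 each. By plain library totals 33 of the 38 kept the same highest organ. The 5 that did not were C1qa, C1qb and Cr1l, which moved from liver to spleen, C6, from liver to lung, and Cd46, from marrow to spleen. Library totals shifted the median log2 fold change of all genes in liver by -1.01, gave 23 members higher and 8 lower there, and moved the share of called genes that were higher from 45.1% to 18.9%.

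Classical pathway recognition divided into the macrophage genes and the proteases. C1qa, a chain of C1q, was measured at 123, 126 and 155 CPM in PBS liver, 57.5, 147 and 164 in spleen, 80.7, 58.6 and 92.2 in lymph node, 166, 43 and 93.2 in tumor, 22.8, 35.5 and 39.7 in lung and 24.8, 18.4 and 34.9 in marrow. Spleen and tumor each overlapped with liver and with lymph node, liver and lymph node did not overlap, and lung overlapped with marrow at the low end. Against the other 5 organs C1qa was called higher in liver (log2 fold change 1.15 ± 0.30 SE, adjusted p = 0.0033) and in spleen (1.00 ± 0.30, adjusted p = 0.013). The liver calls of C1qa, C1qb and C1qc were lost under library totals, where their log2 fold changes were 0.15, 0.44 and 0.13 (adjusted p = 0.715, 0.215 and 0.768). The spleen calls of C1qa and C1qb were each lost without either of 2 spleen libraries (adjusted p = 0.0698 and 0.111 for C1qa, 0.0769 and 0.147 for C1qb). The proteases that C1q activates followed a different order: C1ra was at 509, 489 and 457 CPM in liver and 92.4, 71.3 and 95 in lung, and C1s1 at 601, 607 and 566 in liver, with neither organ overlapping the other. In tumor the C1s1 libraries ran from 0.798 to 10.3 CPM, and its log2 fold change there was -3.72 ± 0.51 (adjusted p = 1e-05).

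Lectin pathway genes were liver genes except for the 2 ficolins. Mbl2, a mannose-binding lectin, was at 1293, 1302 and 1226 CPM in liver and at most 9.35 in any other PBS library, and its log2 fold change in liver was 8.67 ± 0.24 (adjusted p = 7.1e-15). Masp1 and Masp2, the proteases of the pathway, were 7.48 ± 0.24 and 9.04 ± 0.24 higher on the log2 scale in liver. Masp2 had 2 to 5 counts per PBS library in tumor and 3 to 16 in lymph node, so the size of its change is uncertain. Fcna, a ficolin known from liver and spleen macrophages, was at 66, 209 and 244 CPM in spleen and 116, 120 and 128 in liver, 2 organs that overlapped, and at 28.3 to 49.6 in marrow. Fcnb, the ficolin of marrow myeloid cells, was at 177, 143 and 168 CPM in marrow, 2.57, 6.86 and 3.14 in spleen and under 1 CPM in every library of the other 4 organs. Its log2 fold change in marrow, 9.005 ± 0.35 (adjusted p = 4.6e-12), exceeded that of every other member in that organ. Fcnb had 0 to 3 counts per PBS library in lymph node and tumor, 2 to 5 in lung and 2 to 6 in liver. These lie under or near the floor of 3 counts, so the size of that change and its rank cannot be read.

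Among convertase components C3, the central component, was at 17781, 18079 and 14770 CPM in liver, followed by lung at 1155, 595 and 946 and by marrow at 806, 675 and 603. Lung and marrow overlapped, and each was far below liver (log2 fold change in liver 5.43 ± 0.24, adjusted p = 2.6e-12). In tumor C3 was at 90.1, 28.6 and 62.6 CPM and was called lower (log2 fold change -4.32 ± 0.40, adjusted p = 1.3e-07). Cfp, properdin, was the exception to the liver pattern, with 80.3, 197 and 205 CPM in spleen and 97.7, 91.3 and 104.7 in marrow. Its call in marrow (1.16 ± 0.45, adjusted p = 0.035) was lost without any 1 of the 3 marrow libraries (adjusted p = 0.0685 to 0.104). C2 was uneven among PBS tumors at 5.96, 0.342 and 51.3 CPM, a wider range than in any other organ.

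The terminal components did not share 1 source. C8b was at 283, 152 and 124 CPM in liver and at most 1.11 in any other PBS library, and C8a, C8g and C9 had the same shape, with log2 fold changes in liver of 8.07 to 9.22. Outside liver C8a had 1 to 9 counts per PBS library and C8b 1 to 11. Many of these lie near the floor of 3 counts, so the sizes of the changes of C8a and C8b cannot be read. Hc, which encodes C5, was at 249.4, 212 and 192 CPM in liver and 150, 40.4 and 70.8 in lung, and at most 2.82 in the other organs. It was called higher in both liver (6.66 ± 0.28, adjusted p = 1.1e-12) and lung (5.07 ± 0.28, adjusted p = 2.1e-10). C6 was at 39.9, 40.5 and 41.8 CPM in liver and 35.9, 27.5 and 31.1 in lung under TMM scaling, and under library totals the order reversed, with means of 22.7 in liver and 37.9 in lung. C7 was a lung gene, at 45.1, 8.54 and 36.7 CPM there and at most 2.19 elsewhere (log2 fold change 7.19 ± 0.50, adjusted p = 3.7e-09). It had 0 to 2 counts per PBS library in marrow and tumor, 0 to 3 in spleen and 1 to 5 in liver. These lie under or near the floor of 3 counts, so the size of the change cannot be read. The C7 value of lung of PBS mouse 2 was low among the 3, but still above every library of the other organs.

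Regulators and receptors gave the remaining patterns. Vtn, which keeps the pore from inserting, was at 3700, 4028 and 3592 CPM in liver (log2 fold change 8.32 ± 0.15) and at most 51 elsewhere. Clu, another fluid-phase inhibitor of the pore, was at 1852, 1993 and 1843 in liver and 1863, 194 and 712 in tumor, where its call (1.55 ± 0.36, adjusted p = 0.0015) was lost without the library at 1863 (0.46, adjusted p = 0.296). Cd55, which speeds the decay of convertases on the cell's own membrane, was at 114, 159 and 139 CPM in spleen and 27.6, 30.4 and 31.7 in liver, groups that did not overlap. Cr1l, known as Crry, the broadly expressed membrane regulator of rodents, stayed between 55.9 and 89.6 CPM in all 18 PBS libraries. Cd46, which in rodents is known mainly from testis, reached at most 7.77.

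Itgam, the alpha chain of complement receptor 3, was at 750, 624 and 530 CPM in marrow and at most 26.7 elsewhere (log2 fold change 5.73 ± 0.27, adjusted p = 4.2e-11). Its partner Itgb2 (3.23 ± 0.26) and the C5a receptor C5ar1 (3.97 ± 0.29) were also called higher in marrow. C5ar1 was at 88.2, 71.4 and 65.4 CPM in marrow and 4.02, 14.2 and 16.3 in lung, the next organ. Itgax, the alpha chain of complement receptor 4, was at 22.7, 38.7 and 55.7 in lung and 39.7, 27.1 and 33.5 in spleen, which overlapped. The 2 receptors highest in tumor were C3ar1, the C3a receptor, at 19.8, 8.61 and 16.7 CPM and C5ar2, the second C5a receptor, at 2.19, 43.5 and 80.6. C3ar1 in tumor stood above every library of the other organs, whereas C5ar2 in tumor overlapped with marrow at 22.6, 19.8 and 13.2.

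In the remaining organs the counts were 9 higher and 16 lower in spleen (47% of all genes were called in either direction), 9 and 16 in lung (50.6%), 4 and 24 in tumor (50.7%), 4 and 12 in lymph node (33.8%) and 7 and 25 in marrow (57.9%). Of all genes 25.3% were called higher and 21.8% lower in spleen, and 29.2% and 21.5% in lung. The shares were 28.1% and 22.6% in tumor, 20.2% and 13.6% in lymph node and 27.5% and 30.4% in marrow. Under library totals the counts were 11 and 15 in spleen, 10 and 14 in lung, 5 and 23 in tumor, 6 and 11 in lymph node and 7 and 25 in marrow, and the shifts of the median of all genes were 0.32, 0.31, 0.21, 0.17 and -0.01. On that scale 71.8, 77.5, 65.2, 74.1 and 46.1% of all genes called were higher, in the same order. The lymph node count of 16 was 5 without lymph node of PBS mouse 1 and 8 without that of mouse 3. Members differ in length, so their levels are compared with each other only per kb of exon. On that scale C3 led in liver with 3281 ± 356 CPM per kb (SD, n = 3), before Vtn with 1859 ± 112 and Mbl2 with 1169 ± 38. In spleen Fcna (126 ± 68.7), C1qa (118 ± 55.3) and C1qb (99.2 ± 54) came first and did not differ beyond their SD. Clu came first in tumor at 268 ± 248.5, where its SD nearly equals its mean, and Itgb2 came first in marrow at 213 ± 23.5, before C3 at 135 ± 20.

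Liver is so rich in these transcripts that a small share of it would be seen elsewhere. Alb, the albumin gene of hepatocytes, was read in the other organs at a median of 0.279% (tumor) to 0.61% (spleen) of its bulk liver level, over the 6 bulk libraries of each organ. Percents in this paragraph are of CPM of library totals. Of the 25 liver-highest members C8b, C4bp, Masp2 and Mbl2 had medians at or under the highest Alb percentage in all 5 other organs. The median of C4bp, for example, was 0.429% of liver in lung, 0.351% in lymph node, 0.67% in spleen, 0.267% in marrow and 0.26% in tumor. Single libraries passed the highest Alb value. In lymph node Mbl2 reached 1.07% and C8b 0.988%, where Alb reached 0.83%, and in lung C4bp reached 0.708%, where Alb reached 0.656%. The count of medians at or under the highest Alb percentage was 11 of 25 in spleen, 8 each in tumor, lymph node and marrow, and 6 in lung. The remaining members had a median above it in at least 1 organ, some only slightly: C9 in marrow was at a median of 0.419% against a highest Alb value of 0.414%, and C8g in lung at 0.671% against 0.656%. Others were far above: C3 reached a median of 12.2% of liver in lung, 7.65% in marrow, 7.36% in lymph node and 4.88% in spleen, and Serping1, the C1 inhibitor, reached 58.4% in lung. Under TMM scaling liver stood further above lung. In PBS mice mean C3 was then 16876.5 CPM in liver and 899 in lung, and mean Serping1 1410 and 321. In tumor C3 was at 0.96% of liver (0.372 to 6.62%) and Masp1 at 2.37% (0.923 to 24.8%). Whether the Alb-level values come from RNA carried between samples or from the organs was not tested.

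**Figure D2:**
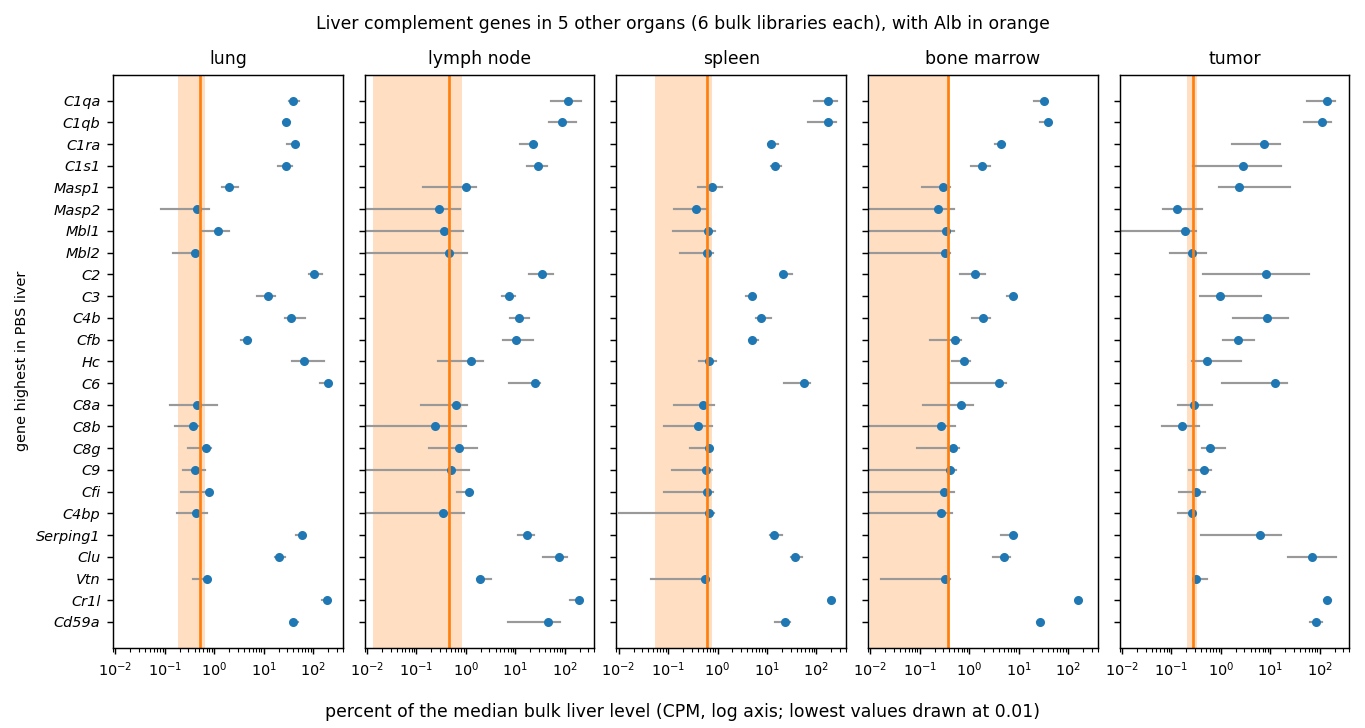
Level of each of the 25 liver-highest members in 5 other organs as a percent of its median bulk liver level (CPM of library totals, log axis), with the median (point) and range (grey line) over 6 bulk libraries, and the median and range of Alb in orange. The medians of C8b, C4bp, Masp2 and Mbl2 lie on the Alb band or to the left of it in every organ, whereas C3 and Serping1 lie to the right of it in lung, and C1qa, C6 and Cr1l reach or pass 100% in some organs on this scale.

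The second comparison asked whether BP changed complement expression in bulk tissue. No member was called in any of the 6 organs by edgeR's quasi-likelihood test. The members tested numbered 35 in liver, 35 in lung, 34 in lymph node, 32 in marrow, 35 in spleen and 31 in tumor. Members with an unadjusted p under 0.05 numbered 7, 1, 5, 0, 3 and 1 in the same order, where 3.56, 0.872, 3.61, 1.32, 0.711 and 5.96% of all genes passed that threshold, and DESeq2 called 1 in liver and 0 in the other organs. The background was as sparse, with 0.0235% of all genes called in liver and 0% in each of the other organs. The members' median log2 fold changes of BP over PBS were -0.11, -0.15, -0.12, -0.11, -0.04 and 0.43, against 0.00, -0.01, -0.01, 0.00, 0.01 and -0.05 over all genes.

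The nearest approach was Fcna in liver. It was at 105.2, 130 and 108 CPM in BP mice and 66.6, 68.5 and 72.2 in PBS mice. All 3 BP livers were above all 3 PBS livers, and the log2 fold change was 0.73 ± 0.11. By edgeR's quasi-likelihood test p was 9.27e-05 and the adjusted p was 0.0964. The adjusted p was 0.00251 without the filter on low counts and 6.53e-05 by DESeq2, and 0.100 to 0.477 with 1 library left out. C1qa in liver was at 102.9, 115 and 95.7 against 70.9, 71.8 and 87.4 CPM (log2 fold change 0.44 ± 0.12, adjusted p = 0.938), and Itgax at 2.88, 2.83 and 1.68 against 0.918, 1.17 and 0.651 (1.44 ± 0.36, adjusted p = 0.748). Neither overlapped between arms, and neither was called. Serping1 was at 653, 599 and 618 against 966, 757 and 692 CPM (-0.37 ± 0.14, adjusted p = 0.999).

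Markers of liver resident macrophages were positive for 6 of 6 genes in the same comparison, with a median log2 fold change of 0.34 and 0 called, and their summed level was 673 to 1102 CPM in BP livers and 489 to 665 in PBS livers. None of the 6 was at 0. The part of these cells in the Fcna and C1qa values was not tested. Hepatocyte markers were negative for 7 of 8 genes (median -0.20), with a summed level of 83441 to 99186 CPM in BP and 87094 to 114303 in PBS livers.

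In lymph node no member was called. Mbl2 was at 2.22, 0 and 0.576 CPM in BP nodes and 3.49, 11.1 and 3.73 in PBS nodes (log2 fold change -2.62 ± 1.05, adjusted p = 0.866), and C8g at 2.82, 0.894 and 2.56 against 3.23, 11.7 and 4.56. The PBS node of mouse 2, which had the highest value of both genes, also had 28.62% mitochondrial counts, against 5.795 to 11.55% in the other 5 bulk nodes. Without it the log2 fold changes were -1.87 for Mbl2 and -0.87 for C8g. The median was -1.79 over 4 lectin pathway genes and -1.14 over 5 terminal components. Cfb, another liver-highest member, was at 299, 203 and 124 CPM in BP nodes and 153, 126 and 122 in PBS nodes. Hepatocyte markers were negative for 8 of 8 genes there (median -2.07), with a summed level of 12.1 to 478 CPM in BP and 533 to 1032 in PBS nodes, none at 0 in all. Their part in the members' values was not tested. In lung the lectin median was -0.81 beside a hepatocyte marker median of -0.67.

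In tumor the spread between mice was wide. C1s1 was at 70.8, 41.5 and 6.03 CPM in BP tumors and 11.2, 0.896 and 4.32 in PBS tumors (log2 fold change 2.85 ± 1.09, adjusted p = 0.797), C3 at 768, 146 and 49.2 against 98.5, 32 and 68.2, and C5ar2 at 23.2, 6.8 and 23 against 2.39, 48.8 and 87.8. The arms overlapped for all 3 genes. The BP tumor of mouse 1, the highest for C1s1 and C3, had 19.45% mitochondrial counts, against 3.06 to 8.33% in the other 5 bulk tumors, and without it the log2 fold change of C1s1 was 2.13 (adjusted p = 0.999). Fat markers were positive for 4 of 4 genes (median 5.93), with a summed level of 231 to 8566 CPM in BP and 6.45 to 166 in PBS tumors, and fibroblast markers for 6 of 6 (median 1.52, 456 to 2424 against 77.6 to 2048 CPM). Their part was not tested.

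**Figure D3:**
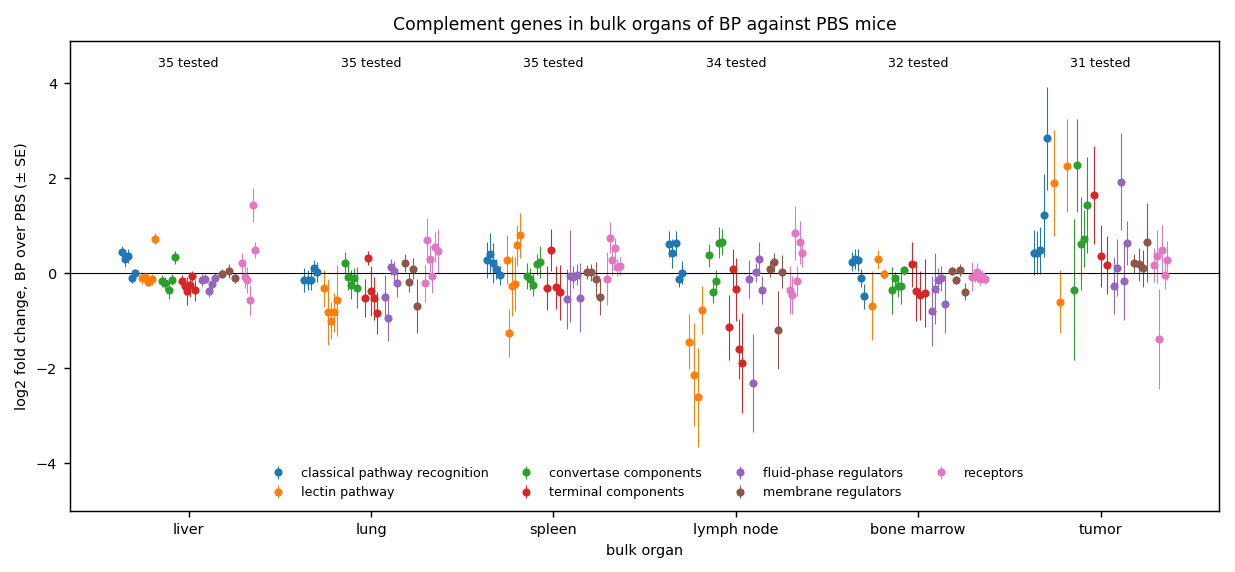
Log2 fold change of BP over PBS bulk tissue for each member tested in each of 6 organs, with bars of 1 SE, coloured by role. No point passed the adjusted threshold, liver values lie between -0.56 (Itgam) and 0.49 (Itgb2) except for Fcna at 0.73 and Itgax at 1.44, and tumor values have the widest bars.

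The third comparison asked which complement genes mark the cells that hold nanoparticle, and set NA cells against bulk tissue of the same BP mice. Liver gave the most calls: 9 of 35 members tested were higher and 16 lower, where 37.3% of all genes were called higher and 37.5% lower, so that the members' share of 25 in 35 is near the background of 74.8%. C7, Fcnb and Cd46 were not tested. The members' median log2 fold change was -0.32, against 0.01 over all genes. All 6 receptors rose, the 16 members that fell were genes of plasma proteins, and C1qa, C1qb, C1qc, Fcna and Cfp did not pass the test.

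Cd55 was at 246, 216 and 251 CPM in NA liver cells and 12.6, 16.2 and 11.5 in bulk liver. The fractions were far apart, with a log2 fold change of 4.14 ± 0.18 (adjusted p = 2.1e-07). Itgam was at 18, 27.5 and 10.8 against 1.56, 1.37 and 1.16 (3.78 ± 0.35, adjusted p = 1.1e-05), and Itgax at 20.5, 20.9 and 16 against 2.19, 2.15 and 1.28 (3.35 ± 0.23, adjusted p = 1.6e-06). Both alpha chains of the receptors for fragments of C3 were thus higher in 3 of 3 mice, as was the chain they share, Itgb2, at 98.8, 111 and 68.2 against 18.8, 21.5 and 14.6 CPM (2.34 ± 0.21). C5ar1 was at 26.4, 26 and 22.4 against 2.71, 2.63 and 2.13 (3.32 ± 0.16, adjusted p = 2.9e-07) and C5ar2 at 23.4, 12.9 and 22.8 against 1.85, 2.45 and 1.71 (3.29 ± 0.28, adjusted p = 5.9e-06). Both receptors of C5a rose by nearly the same amount. C3ar1 rose less, at 14, 4.99 and 6.73 against 3.47, 3.35 and 3.78 (1.303 ± 0.36, adjusted p = 0.0084), and under library totals its value was 0.61 (adjusted p = 0.113).

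The membrane regulator Cr1l was at 47.6, 57.4 and 56.3 against 35.8, 38.1 and 38.8 CPM (0.52 ± 0.12, adjusted p = 0.0035), a direction that turned under library totals (-0.32). Masp1 was the only lectin pathway gene to rise, at 179, 139 and 176 against 131, 105.96 and 109 (0.52 ± 0.15, adjusted p = 0.013). Its direction turned under library totals (-0.27), and its call was lost without the filter on low counts (adjusted p = 0.0595) and without bulk liver of mouse 2 or mouse 3 (0.0724 and 0.0663). Library totals moved the median of all genes in this comparison by -0.81 on the log2 scale, and gave 6 members higher and 19 lower. The share of called genes that were higher moved from 49.9% to 28.0%.

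Hc fell furthest, from 86.1, 88 and 80.8 CPM in bulk liver to 12.5, 14.6 and 9.9 in NA cells (-2.77 ± 0.15, adjusted p = 5.7e-07). C3 was at 949, 2920 and 1630 against 6888, 5994 and 6148 (-1.79 ± 0.41, adjusted p = 0.003), and Mbl2 at 63.6, 227 and 132 against 446, 519 and 554 (-1.85 ± 0.39). For C3 and Mbl2 the NA library of mouse 1 was the lowest and that of mouse 2 the highest. The other members that fell had log2 fold changes between -1.89 (C4bp) and -1.002 (Cfb). Cfb lost its call without bulk liver of mouse 1, 2 or 3 or NA liver of mouse 3 (adjusted p = 0.0731, 0.0565, 0.0606 and 0.104), and Cfi without NA liver of mouse 3 (0.0526).

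C1qa was at 175, 68.6 and 79.4 CPM in NA cells and 78.5, 87.4 and 73.1 in bulk liver (0.44 ± 0.31, adjusted p = 0.23). Fcna followed with 171, 64.1 and 79.2 against 80.3, 98.9 and 82.8 (0.27 ± 0.32, adjusted p = 0.47), Cfp with 89, 39.7 and 36.8 against 35.9, 46.6 and 40.3, and C6 with 31.8, 10.7 and 5.94 against 15.1, 17.9 and 10.9. In each of these 4 genes the NA library of mouse 1 was more than 2 times each of the other 2, and those 2 lay within or below the range of bulk liver. Clec4f, a marker of resident liver macrophages, had the same shape at 495, 174 and 130 against 280, 348 and 219 CPM.

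Markers of other cells moved with these results. The 8 hepatocyte markers were all negative with 7 called lower (median -1.47), and their summed level was 11258 to 22360 CPM in NA cells and 83441 to 99186 in bulk liver. All 4 endothelial markers rose (median 4.14, 930 to 2257 against 125 to 185 CPM), as did 7 of 7 neutrophil markers tested (2.59, 62.8 to 172 against 27.6 to 41.2), 3 of 4 monocyte markers (2.92), 5 of 5 dendritic cell markers (3.51), 4 of 4 B cell markers (3.75) and 4 of 4 T cell markers (3.32). Of 6 resident macrophage markers 2 rose (median 0.32, 317 to 1287 against 673 to 1102). The 5 genes of the dissociation response rose together (median 6.50, 2064 to 3604 against 59.1 to 67.4). None of these markers was at 0 in all libraries. The summed levels are of library totals, which moved the median of all genes in this comparison by -0.81 on the log2 scale. The median fold changes are of TMM-scaled fits, so sums and medians are on different scales. Their part in the members' changes was not tested, and the digestion that only NA cells underwent cannot be told apart from nanoparticle uptake.

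**Figure D4:**
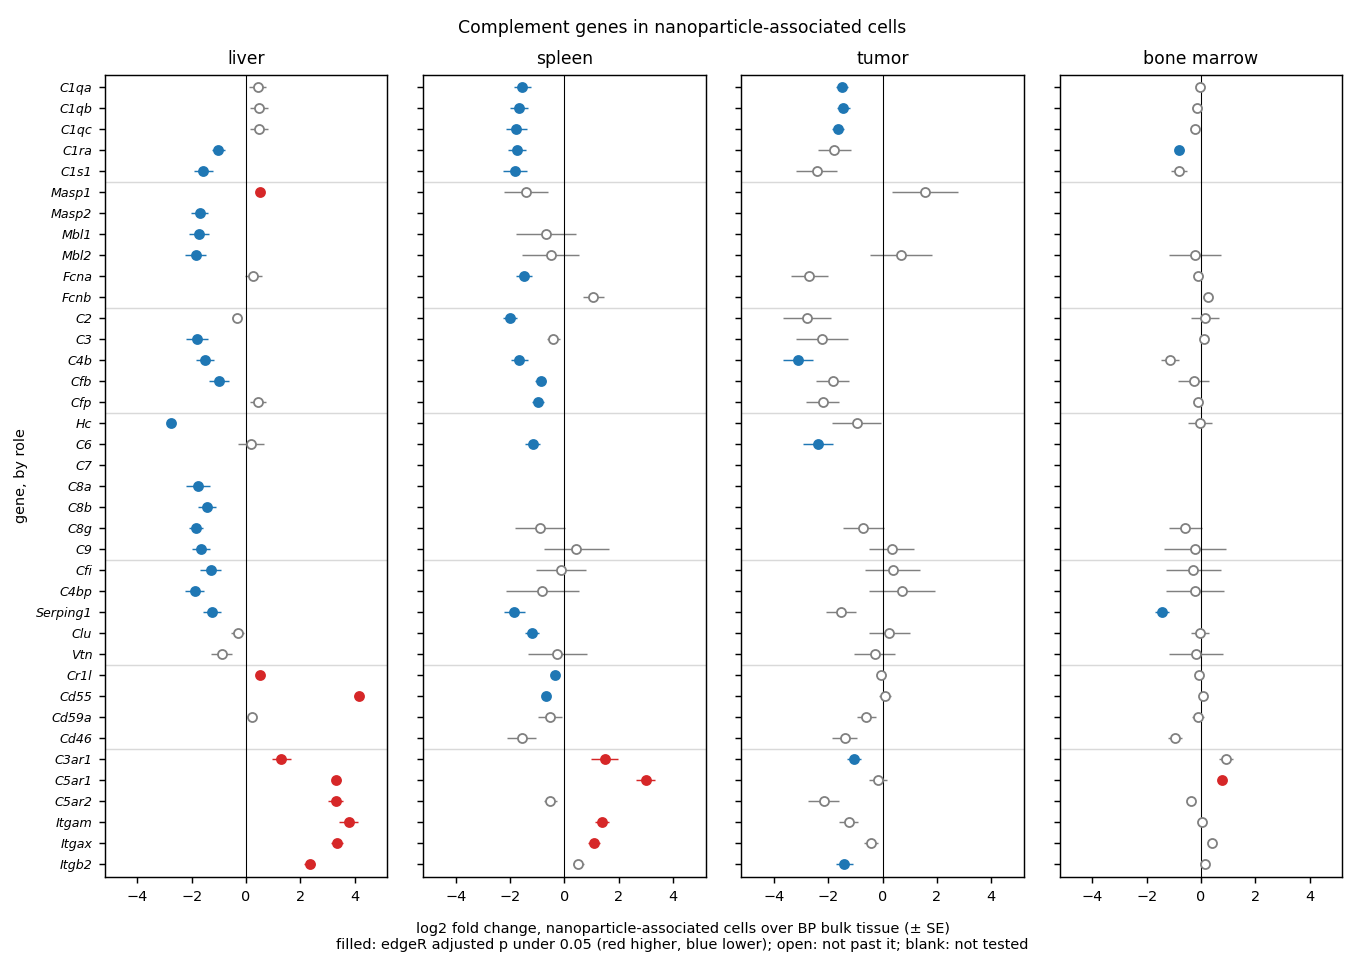
Log2 fold change of NA cells over BP bulk tissue for each member in 4 organs, with bars of 1 SE, where filled points passed an adjusted p of 0.05 (red higher, blue lower) and blanks were not tested. In liver the receptors and Cd55 lie far to the right and the plasma components to the left, in spleen and tumor the C1q genes lie to the left, and in marrow the 3 filled points are C5ar1, C1ra and Serping1. Under library totals the liver points of Cr1l and Masp1 lie left of 0.

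In spleen 4 of 33 members tested rose and 15 fell, where 20.2% of all genes were called higher and 22% lower (42.2% in either direction). C7, Hc, C8a, C8b and Masp2 were not tested, and the members' median was -0.81 against -0.04 over all genes. Library totals gave 3 higher and 15 lower, with the share of called genes that were higher at 35.3% in place of 47.9%. C5ar1 was at 57.9, 37.2 and 28.1 CPM in NA cells and 6.38, 5.36 and 3.83 in bulk spleen (2.99 ± 0.33, adjusted p = 0.0011). Itgam was at 121, 94 and 64.6 against 42.6, 35.8 and 28.6 (1.39 ± 0.26, adjusted p = 0.0062) and Itgax at 109, 63.8 and 93.2 against 45.2, 37.8 and 42.1 (1.09 ± 0.21, adjusted p = 0.0065). These 3 receptors were higher in 3 of 3 mice with no overlap between fractions. C3ar1 was at 4.94, 3.94 and 2.51 against 2.35, 0.808 and 0.957 (1.48 ± 0.49, adjusted p = 0.049), and its call was lost without mitochondrial genes, under library totals, and without NA spleen of mouse 1, 2 or 3 or bulk spleen of mouse 2 or 3 (adjusted p = 0.0506 to 0.149).

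C1q genes, Fcna and Cfp fell in NA spleen cells. C1qa was at 81.7, 35.4 and 58.3 CPM against 213, 162 and 137 in bulk spleen (-1.54 ± 0.32, adjusted p = 0.009), and C1qb and C1qc fell by similar amounts (-1.68 and -1.76). Fcna was at 141, 61.2 and 118 against 327, 317 and 252 (-1.48 ± 0.30, adjusted p = 0.0089), and Cfp at 139, 78.4 and 117 against 247, 210 and 193 (-0.96 ± 0.22, adjusted p = 0.014). None of these groups overlapped. C2 (-2.00 ± 0.26, adjusted p = 0.0019), Serping1 (-1.84), C1s1 (-1.83), C1ra (-1.74), C4b (-1.65), Clu (-1.19), C6 (-1.17) and Cfb (-0.88) also fell. C6 lost its call without bulk spleen of mouse 2 (adjusted p = 0.0574) or NA spleen of mouse 3 (0.0645), and Cfb without bulk spleen of mouse 2 (0.0501). Cd55, which rose in liver, fell in spleen from 161, 142 and 174 CPM to 92.4, 98.2 and 106.5 (-0.69 ± 0.12, adjusted p = 0.0057). The fall of Cr1l (-0.35 ± 0.11, adjusted p = 0.044) was lost under RLE scaling, DESeq2, no filter, no mitochondrial genes and 5 of 6 left-out libraries, all but NA spleen of mouse 3 (adjusted p = 0.0546 to 0.15).

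Beside these, 3 of 7 general macrophage markers fell (median -0.94, summed 1015 to 2434 CPM in NA cells and 2700 to 4026 in bulk spleen), 1 of 4 red pulp macrophage markers fell (-0.86, 302 to 1057 against 1286 to 1887), 4 of 6 fibroblast markers fell (-1.76, 30.6 to 110 against 193 to 321), 3 of 8 neutrophil markers rose (0.84, 2485 to 5529 against 1031 to 3330) and 5 of 5 dissociation genes rose (4.52). Fcnb, the marrow-type ficolin, was at 23.8, 16.9 and 11.9 against 11.8, 8.81 and 4.51 and was not called (1.07 ± 0.40, adjusted p = 0.07). The part of other cells in these values was not tested.

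In tumor 7 of 32 members tested fell and none rose by edgeR's quasi-likelihood test, where 3.17% of all genes were called lower and 5.87% higher (9.04% in either direction). Members with an unadjusted p under 0.05 numbered 18, where 31.8% of all genes passed that threshold, and DESeq2 called 17, all lower, among 3303 of 14615 genes. C7, C8a, C8b, Masp2, Mbl1 and Fcnb were not tested, and the members' median was -1.33 against -0.03 over all genes. Library totals again gave 7 lower, with the share of called genes that were higher at 48% in place of 65.0%. C1qa was at 56.6, 53.3 and 43.3 CPM in NA cells and 145, 170 and 114 in bulk tumor (-1.49 ± 0.23, adjusted p = 0.021), and C1qb (-1.45) and C1qc (-1.65) fell with it. C4b was at 19.8, 28.5 and 25.8 against 405, 107 and 126 (-3.11 ± 0.56, adjusted p = 0.028), and C3ar1 at 8.15, 7.88 and 9.77 against 18.9, 15.8 and 18.6 (-1.05 ± 0.25, adjusted p = 0.048). C6 (-2.39 ± 0.55, adjusted p = 0.045) and Itgb2 (-1.41 ± 0.31, adjusted p = 0.042) also fell. In each of the 7 the NA values lay below the bulk values in 3 of 3 mice.

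These tumor calls were not stable. With NA tumor of mouse 1, 2 or 3 left out none of the members was called. With bulk tumor of mouse 1, 2 or 3 left out 4, 2 and 13 were called. All genes called ran from 20 to 1935 over these 6 fits, against 1321 with every library, so the members' counts cannot be read apart from that background. With the mouse as a block, where fewer of all genes were called as well, 4 members were called. There C4b, C6, C3ar1 and Itgb2 were lost (adjusted p = 0.0519, 0.0544, 0.0727 and 0.0655). C5ar1, higher in NA cells of liver and spleen, was at 6.02, 5.55 and 7.5 against 8.32, 7.75 and 5.6 (-0.18 ± 0.33, adjusted p = 0.74). Masp1 was at 38.2, 80.9 and 5.67 CPM in NA cells and 4.21, 36 and 2.19 in bulk tumor, higher in NA cells of every mouse and not called (1.56 ± 1.21, adjusted p = 0.41). Of 7 macrophage markers 4 fell (median -1.13, 208 to 244 against 732 to 859 CPM), as did the 3 fat markers tested (-7.59, 22.1 to 31.0 against 231 to 8566), while 5 of 5 dissociation genes rose (3.40). Their part was not tested.

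In bone marrow 3 of 31 members tested were called, 1 higher and 2 lower, where 4.8% of all genes were called higher and 2.9% lower (7.69% in either direction). C6, C7, C8a, C8b, Masp1, Masp2 and Mbl1 were not tested, and the members' median was -0.13 against -0.01 over all genes. C5ar1 was at 131, 111 and 122 CPM in NA cells and 69.9, 67.2 and 76.1 in bulk marrow (0.78 ± 0.11, adjusted p = 0.0062), with no overlap. It kept its call with any 1 library left out. Serping1 was at 11.1, 18.5 and 22.9 against 47.1, 54.9 and 37.8 (-1.42 ± 0.25, adjusted p = 0.016), a call lost without bulk marrow of mouse 1 or 2 or NA marrow of mouse 2 (adjusted p = 0.0635, 0.0739 and 0.0665). C1ra was at 5.25, 6.58 and 7 against 11.7, 11.2 and 9.64 (-0.79 ± 0.18, adjusted p = 0.039), a call lost without any 1 library other than NA marrow of mouse 1 (adjusted p = 0.0701 to 0.136). With the mouse as a block 6 members were called, 2 higher and 4 lower, while the genes called rose from 1044 to 2719 of 13573, and without NA marrow of mouse 1 the count was 5. Itgam stayed level, at 732, 566 and 478 against 604, 584 and 537 CPM (0.04 ± 0.16, adjusted p = 0.9), and 4 of 5 dissociation genes rose (4.13).

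C5ar1 was thus called higher in NA cells of liver, spleen and marrow and not in tumor. Values of the single NA lymph node library and of the bulk nodes beside it are CPM of library totals. In that NA library C5ar1 was at 7.80 CPM (exact Poisson 95% interval 6.13 to 9.77, which covers counting error only), above the 6 bulk nodes at 1.28 to 3.55. Clu was at 1482 CPM there (1457 to 1506), against 362 to 1123 in bulk nodes. Below the bulk range were C3 at 409 CPM, C4b at 61.3, Serping1 at 62.4, Vtn at 20.9, Cd59a at 2.703 and Cd46 at 0.416, and the other 30 members lay within it once the interval was allowed for. With 1 library there is no test.

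**Figure D5:**
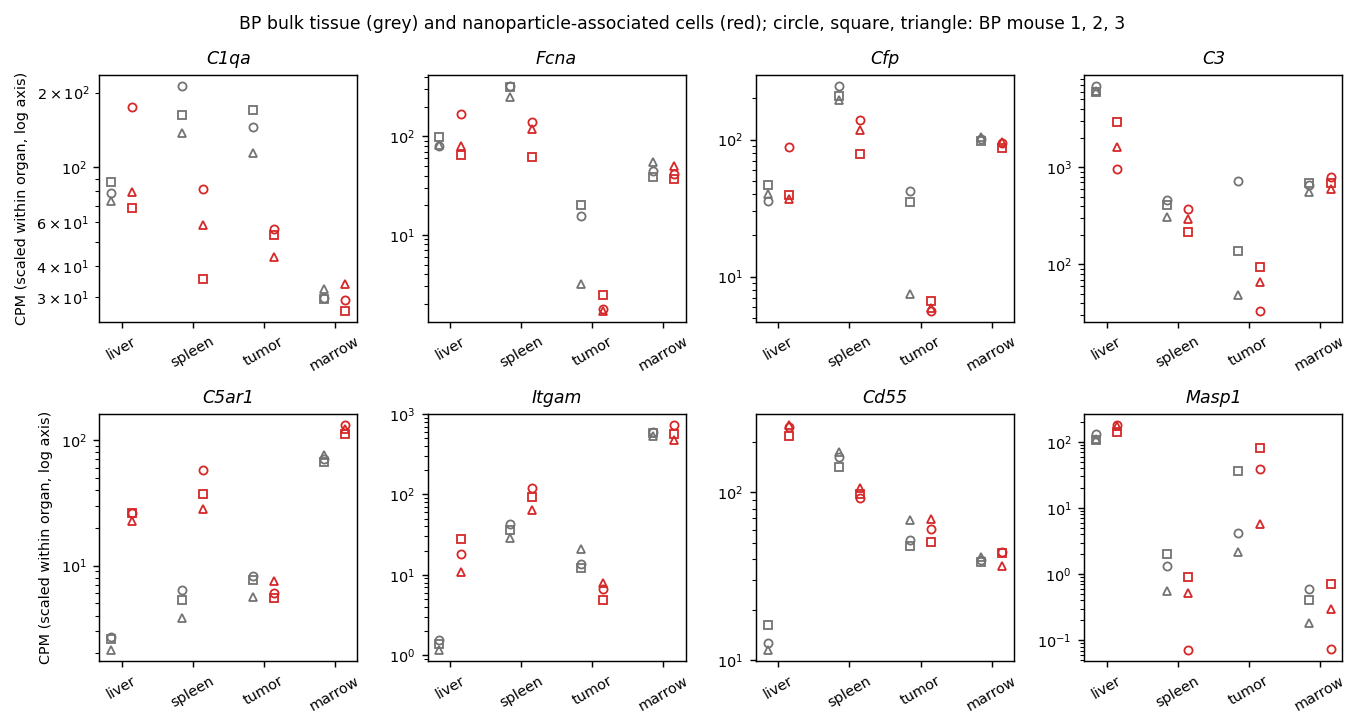
CPM of 8 members in BP bulk tissue (grey) and NA cells (red) of liver, spleen, tumor and marrow on log axes, where circle, square and triangle are BP mouse 1, 2 and 3 and each organ was scaled on its own. C5ar1 in NA cells lies above bulk tissue in liver, spleen and marrow, C1qa lies below it in spleen and tumor, and C1qa, Fcna and Cfp in NA liver of mouse 1 lie above the other libraries of liver.

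Whether the liver change differed from that in the other organs was tested directly, as the NA minus bulk change in liver against the mean change in tumor, spleen and marrow. Of 38 members 16 were higher and 3 lower, where 29.4% of all genes were called higher and 24.3% lower (53.7% in either direction). Cd55 differed most firmly, with a log2 difference of 4.23 ± 0.21 (adjusted p = 6.4e-11), followed by Itgax (2.91 ± 0.24, adjusted p = 1.3e-08), Itgb2 (2.49 ± 0.25), Itgam (3.63 ± 0.37) and C5ar2 (4.22 ± 0.44). C5ar1 also differed (2.04 ± 0.26, adjusted p = 2.4e-06), so its change in liver exceeded the mean of the other 3 organs. C1qa (1.37 ± 0.35, adjusted p = 0.0025), C1qb (1.49) and C1qc (1.60) differed as well. They had fallen in spleen and tumor and were not called in liver. The 3 lower members were Hc (-2.53 ± 0.53, adjusted p = 0.00047), C8a (-2.26 ± 0.81) and Masp2 (-1.89 ± 0.75), whose change in tumor, spleen and marrow rests on values near 0.

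C7 (4.79) and Fcnb (3.501) were also called, but in bulk liver C7 had 1 or 2 counts per library and Fcnb 0 or 1, under the floor of 3 counts, so the size of their difference cannot be read. C7, Fcnb and Cd46 had not passed the filter within liver. C6 had not passed it within marrow, where it had 1 to 13 counts in bulk libraries and 0 to 3 in NA libraries. Leaving out any 1 of the 24 libraries kept 13 of these 19 calls. Without NA liver of mouse 1 the calls of Fcna (1.04, adjusted p = 0.0985), Cfp (0.89, 0.107) and C6 (1.11, 0.139) were lost. Fcnb was lost without NA or bulk liver of mouse 2 (adjusted p = 0.136 and 0.0509), C8a without NA marrow or NA spleen of mouse 2 (0.222 and 0.107), and Masp2 with most libraries left out (0.0504 to 0.1). Under library totals 8 members were higher and 9 lower, with the median of all genes shifted by -0.66 and the share of called genes that were higher at 34.0% in place of 54.7%. On that scale 11 of the 19 calls were kept, C1qa, C1qb, C1qc, Fcna, Cfp, C6 and Cd46 were no longer called, and Cr1l turned in direction (from 0.59 to -0.092).

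Among NA cells alone, each organ against the mean of the other 3, liver was higher for 34 of 37 members tested and lower for 2, Itgam (-0.71 ± 0.28, adjusted p = 0.046) and Fcnb (-2.36 ± 0.62, adjusted p = 0.0064), where 58.4% of all genes were called. The Itgam call was lost under RLE scaling and with 8 of the 12 libraries left out, all but NA liver of mouse 2, NA tumor of mouse 2, NA spleen of mouse 3 and NA marrow of mouse 3 (adjusted p = 0.059 to 0.203), and the Fcnb call without NA tumor of mouse 3 (0.0841). Spleen had 6 higher and 17 lower (53.7% of all genes called), tumor 2 and 25 (65.3%) and marrow 8 and 27 (58.4%). Of all genes 30.6% were called higher and 27.9% lower in liver, and 29.5% and 24.2% in spleen. The shares were 33.6% and 31.7% in tumor and 28.6% and 29.8% in marrow. Under library totals the counts were 28 higher and 7 lower in liver, 8 and 8 in spleen, 4 and 17 in tumor and 8 and 21 in marrow, and the median of all genes shifted by -1.56, 0.57, 0.58 and 0.41. On that scale the liver values of Itgb2, Cr1l, Itgax and C5ar1 turned negative (-0.76, -0.81, -0.74 and -0.70 against 0.81, 0.77, 0.83 and 0.86), and Cr1l turned positive in spleen (0.22 against -0.35) and in tumor (0.26 against -0.33). The 2 members higher in NA tumor cells than in the mean of the other 3 organs were Masp1 (3.32 ± 0.60, adjusted p = 0.00041) and Clu (2.22 ± 0.45, adjusted p = 0.00088). Clu was at 750, 1303 and 153 CPM in NA tumor cells and 707, 1324 and 908 in NA liver, 2 organs that overlapped. In NA spleen it was at 126, 73.9 and 133, and in NA marrow at 17.4, 45.2 and 45.3. Masp1 was at 28, 58.3 and 4.12 CPM in NA tumor cells on this scale, at most 0.632 in NA spleen and marrow and 308, 238 and 298 in NA liver. Itgam was at 583, 457 and 385 in NA marrow, 83.6, 65.2 and 45.8 in NA spleen, 30.9, 47 and 18.4 in NA liver and 4.92, 3.46 and 5.82 in NA tumor, an order in which no 2 organs overlapped except that NA liver of mouse 2 exceeded NA spleen of mouse 3.

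Other genes of the pathway, 29 in all, were listed beside the members. In NA liver cells 4 of 23 tested rose and 15 fell (median log2 fold change -1.32), where 74.8% of all genes were called. Thbd, thrombomodulin of endothelium, rose from 2.21 ± 0.626 to 49.2 ± 12.1 CPM (SD, n = 3, log2 fold change 4.47 ± 0.26 SE), and Cd93, a receptor of endothelium and myeloid cells, from 5.61 ± 1.37 to 101.6 ± 23.3 (4.17 ± 0.23). C4a (-2.78 ± 0.25) and Cd59b (-2.66 ± 0.49), near copies of C4b and Cd59a, had the next largest changes. In NA spleen cells, where 42.2% of all genes were called, 2 of 23 rose and 7 fell, among them Cfd, the factor D gene (-2.23 ± 0.57, adjusted p = 0.0196), and Cr2, the complement receptor of B cells, which fell from 831 ± 123 to 212 ± 23.2 CPM (-1.97 ± 0.16, adjusted p = 0.000528). In NA tumor cells, where 9.04% of all genes were called, 3 of 20 fell, Cfd (-8.29 ± 1.65, adjusted p = 0.0337), Fcgr1 (-2.12 ± 0.32) and Colec12 (-1.52 ± 0.35), and in NA marrow, where 7.69% were called, 1 of 18, Cr2 (-1.54 ± 0.31). Cfd, also a gene of fat cells, was at 1965 ± 2942 CPM in bulk tumor, an SD above the mean, beside the fall of the fat markers given above.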

How the data were processed

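The authors deposited 1 table of expected counts per gene for all 49 libraries. Per the submitters' processing notes the tools were FastQC 0.11.9, cutadapt 3.5, STAR 2.7.9a and RSEM 1.3.1 with build mm10, and the annotation and strand setting are not given in the sources used here. Between 4.64 and 7.92% of a library's values were not whole, and values were rounded to whole counts.

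Genes with low counts were removed with edgeR's filterByExpr (minimum count 10), libraries were scaled by TMM, and edgeR 4.0.16 (R 4.3.3, limma 3.58.1) fitted its quasi-likelihood test over all genes, with a Benjamini-Hochberg adjusted p of 0.05 as the threshold. The steps were tested on simulated data. Fits were made for BP against PBS in each organ, NA against BP bulk tissue in each organ, each PBS organ or NA organ against the mean of the others, and the liver NA change against the mean of the other 3. Organs of 1 mouse are not independent, which the last 3 kinds of fit without a block do not take into account. Alternatives were RLE scaling, no filter, the mouse or replicate number as a block, DESeq2 1.42.0, no mitochondrial genes, and each library left out. Library totals without scaling factors were added after seeing the data.

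The 38 members and all lists were chosen with earlier results of these data known. The text names members by role, with up to 4 other complement genes per comparison by size of change, and marker lists of other cell types. NA and bulk libraries of 1 organ come from the same mice, so the numbers pair them. The correlation of their deviations ran from -0.01 to 0.18 in liver, -0.17 to 0.74 in spleen, -0.05 to 0.32 in tumor and 0.03 to 0.43 in marrow. BP and PBS mice share numbers only. Replicate libraries differed by more than counting noise (chi-square per degree of freedom at least 8.43).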

Additional observations from a re-analysis of the deposited data

Results flagged for a closer look

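For 19 of 38 members the change from bulk tissue to NA cells in liver differed from the mean change in tumor, spleen and marrow by edgeR's quasi-likelihood test of that difference. Of all genes tested 53.7% were called, so the members' share is near the background. The log2 differences were 1.37 for C1qa, 1.49 for C1qb, 1.60 for C1qc, 2.09 for C6, 4.79 for C7, 1.44 for Cfp, 1.61 for Fcna and 3.501 for Fcnb. Among receptors and membrane regulators they were 2.04 for C5ar1, 4.22 for C5ar2, 3.63 for Itgam, 2.91 for Itgax, 2.49 for Itgb2, 4.23 for Cd55, 2.23 for Cd46 and 0.59 for Cr1l, which turned to -0.092 under library totals. In bulk liver C7 had 1 to 2 counts per library and Fcnb 0 to 1, under the floor of 3 counts, so the size of their difference cannot be read, and Cd46 had 3 to 9. None of these 3 had passed the filter on low counts within liver. C6 had not passed it within marrow, where it had 1 to 13 counts in bulk libraries and 0 to 3 in NA libraries. The differences were negative for Hc (-2.53), C8a (-2.26) and Masp2 (-1.89). In the single NA lymph node library, which entered no comparison, C5ar1 was at 7.80 CPM and Clu at 1482 CPM by library totals, above every bulk node.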

How the results depend on the processing

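The time point is uncertain, the number of mice is 3 per arm, and NA cells differ from bulk tissue by digestion and sorting as well as by nanoparticle. Values under 0.152 to 0.32 CPM, according to the library, cannot be told from absence.

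Between BP and PBS, genes called in liver numbered 3, and 49 without the filter and 37 by DESeq2, with 1 member (Fcna) called by each. They numbered 0 in lymph node, marrow and tumor, and 11, 4 and 138 by DESeq2, and 27 in marrow without the filter. With 1 library left out they ran from 1 to 9 in liver, 0 to 1 in lung and 0 to 1 in marrow. In NA against bulk tissue, genes called in tumor numbered 1321, and 3303 by DESeq2 (17 members in place of 7) and 800 under library totals. Left-out libraries gave 20 to 1935 genes and 0 to 13 members in tumor, 289 to 1899 genes and 1 to 5 members in marrow (1044 genes and 3 members with all), and 5 to 18 members for PBS lymph node against the other organs.

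With the mouse as a block, which follows the pairing of NA and bulk libraries, marrow gave 2719 genes and 6 members and tumor 625 genes and 4 members. The block ended no member's call in NA liver, spleen or marrow against bulk tissue. In liver Fcna had a BP over PBS value of 0.72 (adjusted p = 0.148) with the replicate number as a block.

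Library totals turned the direction of Cr1l (-0.32) and Masp1 (-0.27) in NA against bulk liver, of Cr1l in the liver difference (-0.092), and among NA organs of Itgb2 (-0.76), Cr1l (-0.81), Itgax (-0.74) and C5ar1 (-0.70) in liver and of Cr1l in spleen (0.22) and tumor (0.26). The cause of these changes was not tested. Among NA organs they moved the share of called genes that were higher from 52.3% to 14.3% in liver, 54.9% to 82.8% in spleen, 51.5% to 71.9% in tumor and 48.98% to 67.8% in marrow, and among PBS organs from 53.8% to 71.8% in spleen, 57.6% to 77.5% in lung and 59.7% to 74.1% in lymph node.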
